A study of Mus musculus with 2 samples.

Results

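The apolipoprotein L genes of the mouse were followed here in 2 libraries of colon epithelial RNA. The 10 genes were taken by symbol, namely Apol6, Apol7a, Apol7b, Apol7c, Apol7e, Apol8, Apol9a, Apol9b, Apol10a and Apol10b, out of 22350 gene symbols listed in either library. They were selected on their FPKM in these same libraries, known from earlier results, so their differences between the libraries are given as a description. Of the 10 genes, 9 were listed in both libraries, 8 averaged 1 FPKM or more, Apol7c was listed below that level, and Apol8 was listed in neither library and was taken as 0. FPKM are fragments counted per kilobase of transcript and set relative to all mapped fragments, and where a pair of values is given, the wild type value comes first.

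Both libraries came from colon epithelium of C57BL/6 mice that had received 2.5% DSS, the colitis-inducing polymer dextran sulfate sodium, for 3 days. The genotype of 1 library was Wild Type and that of the other was Pkm2-/-, the knockout of the M2 isoform of pyruvate kinase. The sources used here do not give age, sex, how many animals entered a library or how the allele was made, and no library without DSS was analysed here. A single library per genotype allows no test, so no p-value is given and every value describes these 2 libraries.

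Apolipoprotein L proteins are mostly intracellular proteins with a membrane-inserting region that resembles those of pore-forming bacterial toxins and of the Bcl-2 family. The family is known best for human APOL1, a serum protein that kills trypanosomes. Mice have no direct counterpart of APOL1 but carry a separately expanded cluster of genes, and several members in both species are induced by interferons. Among the mouse proteins, the Apol9 proteins are known to bind phosphatidylethanolamine and to act against viruses, and Apol7c is known from dendritic cells, where it can damage phagosome membranes.

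Since the family is known for its response to interferon, the stretches upstream of the genes are described first, although differences between the libraries were already known. They were taken from the RefSeq promoter table for GRCm38.p6, which had an entry for 9 of the 10 genes and none for Apol6. Each entry spans 250 bases before and 50 bases after the start. The search, on either strand, was for the core bound by interferon regulatory factors (IRF), 2 copies of GAAA with 2 bases of any kind between them. It was present in 6 of the 9 genes, Apol7c, Apol7e, Apol9a, Apol9b, Apol10a and Apol10b. In the table, 3.44% of the 32851 promoters and 3.99% of the 27025 genes held it. The related genes Apol11a and Apol11b, which lie in the same cluster, held it too, and Apol7a, Apol7b and Apol8 did not. The windows around the core are shown because they show which members share the same core and surroundings and which lack it. Capitals mark the core, which reads on the opposite strand in all of them, and each line runs 5′ to 3′ on the strand of the gene.
Apol9a, chr15:77411104-77411157, minus strand: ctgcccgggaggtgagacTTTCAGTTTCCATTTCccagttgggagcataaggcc
Apol9b, chr15:77729017-77729070, plus strand: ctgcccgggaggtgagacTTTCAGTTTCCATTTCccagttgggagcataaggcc
Apol10a, chr15:77476978-77477031, plus strand: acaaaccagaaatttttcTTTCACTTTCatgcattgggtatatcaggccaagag
Apol10b, chr15:77596120-77596147, minus strand: ctcagacagaaattttacTTTCATTTTC
Apol11b, chr15:77643301-77643354, minus strand: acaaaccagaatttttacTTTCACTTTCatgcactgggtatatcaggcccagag
Apol7c, chr15:77533335-77533388, minus strand: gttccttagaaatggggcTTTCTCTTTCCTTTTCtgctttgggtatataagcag
Apol7e, chr15:77698835-77698888, plus strand: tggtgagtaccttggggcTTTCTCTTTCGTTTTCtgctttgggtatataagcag
Apol7b, chr15:77447461-77447512, minus strand: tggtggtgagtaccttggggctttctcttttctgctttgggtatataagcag

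The Apol9a and Apol9b windows were the same base for base, with 2 overlapping cores. Apol7c and Apol7e also held 2 overlapping cores each. Apol10a and Apol11b carried 1 core, in closely related surroundings, and in Apol10b the core lay across the annotated start, from 4 bases before it to base 6 of the transcript. The stretch of Apol7b aligned with that of Apol7e but held no core. The NF-kB pattern, GGGA and TTTCC with 1 base of any kind between them, was found in none of the 9 genes. The share over all genes with a promoter in the table was 0.466%, or 0.174% where that base was C. The 250 bases before the start of Apol10a, the most abundant member, are shown with the IRF core towards their right end in capitals.
Apol10a, chr15:77476797-77477046, plus strand: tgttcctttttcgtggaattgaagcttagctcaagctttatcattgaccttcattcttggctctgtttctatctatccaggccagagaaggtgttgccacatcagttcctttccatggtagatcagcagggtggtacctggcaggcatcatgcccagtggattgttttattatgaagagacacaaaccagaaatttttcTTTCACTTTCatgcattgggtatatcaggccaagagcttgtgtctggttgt
The same stretch of Apol9a, shown because Apol9a and Apol10a differed between the libraries in opposite directions, held 2 overlapping IRF cores.
Apol9a, chr15:77411081-77411330, minus strand: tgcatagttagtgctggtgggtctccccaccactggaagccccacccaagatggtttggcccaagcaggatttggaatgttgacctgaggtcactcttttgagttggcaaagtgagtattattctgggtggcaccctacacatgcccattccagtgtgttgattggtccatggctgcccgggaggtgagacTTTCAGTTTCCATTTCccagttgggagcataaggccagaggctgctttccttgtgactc
A match to these letters describes the sequence and shows no binding.

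The depth of the libraries was read from the steps between the lowest values. They put the wild type library at about 19000000 and the knockout library at about 21400000 fragments, which is about 38.0 and 42.8 fragments for each 1 FPKM of a 2 kb transcript. Intervals given with a fold are 95% Clopper-Pearson intervals on the fragments implied by these steps and the longest annotated transcript. They are approximations of the counting error alone and say nothing of the spread between animals or preparations. Pkm, the gene targeted in the knockout, was at 281 FPKM in wild type cells and at 86.2 FPKM in knockout cells, and the epithelial marker Epcam at 584 and 712 FPKM.

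The family did not differ as a block between the libraries. Of the 8 genes that averaged 1 FPKM or more, 3 were higher in the knockout library by 2-fold or more, Apol10b, Apol6 and Apol10a, and 2 were lower by 2-fold or more, Apol9a and Apol9b. This count used log2((knockout FPKM + 1)/(wild type FPKM + 1)), in which the added 1 makes the differences of low genes look smaller. Among all 12429 genes at that level, 1.42% were at least 2-fold higher and 1.90% at least 2-fold lower. The members were chosen with these differences known, so nothing is read from the shares. The median log2 ratio of the 8 genes was 0.77, against 0.06 over all genes, with 5 of the 8 above 0 and 3 below. This median lay between Apol7e (0.75) and Apol7b (0.79), a near-identical pair at low levels, and was 0.17 over the members averaging 5 FPKM or more.

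**Figure D1:**
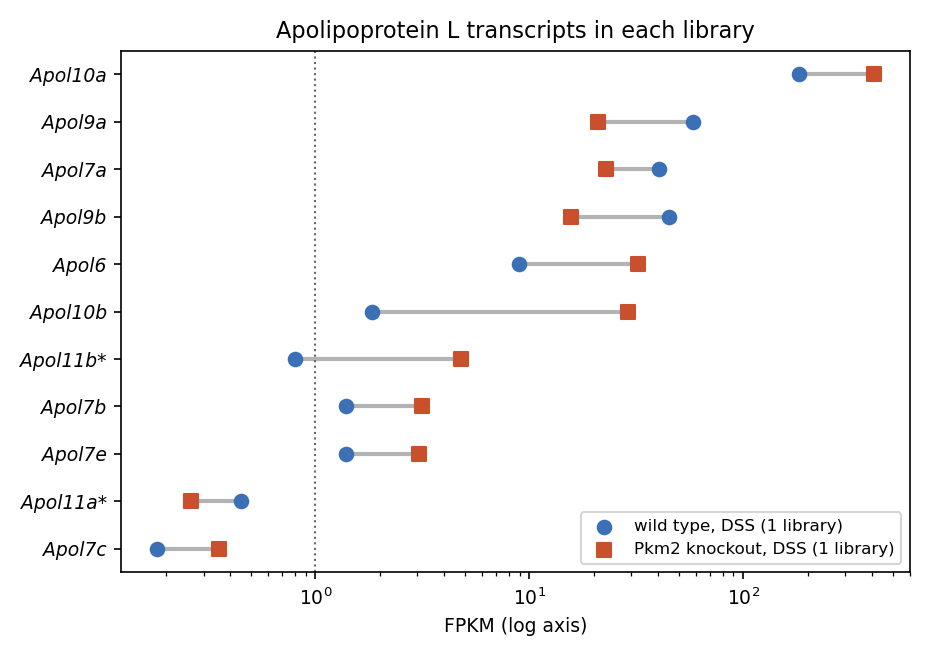
Level of each listed apolipoprotein L gene in FPKM on a log axis, with a blue circle for the wild type library, a red square for the Pkm2 knockout library and a grey line joining both. The dotted line marks 1 FPKM and asterisks mark Apol11a and Apol11b, relatives outside the 10 genes. Apol10a had the highest level in both libraries, and the squares lie left of the circles for Apol9a, Apol9b, Apol7a and Apol11a.

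Apol10a was by far the most abundant member. It was at 183 FPKM in the wild type and 408 FPKM in the knockout library, 2.23-fold higher (95% counting interval 2.18 to 2.28). Its gene (ENSMUSG00000050982, chromosome 15, 77477047 to 77491069 on GRCm38, plus strand) has 4 exons and 318 codons. Apol10b (ENSMUSG00000050014, chromosome 15, 77583819 to 77596125, minus strand), its relative in the same cluster, was at 1.83 FPKM in the wild type and 28.8 FPKM in the knockout library. This was the largest difference in the family, 15.7-fold (95% counting interval 12.6 to 19.9), and the log2 ratio of 3.40 ranked 20 from the highest among the 12429 genes. Both Apol10 genes were thus higher in the knockout library but by different factors, and Apol10a exceeded Apol10b 100.2-fold in the wild type and 14.2-fold in the knockout library. Summed, the Apol10 genes stood at 185 and 437 FPKM.

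Apol6 (ENSMUSG00000033576, chromosome 15, 77044729 to 77057106, plus strand), which lies apart from the cluster, was at 8.99 FPKM in the wild type and 32.2 FPKM in the knockout library. It was 3.58-fold higher (95% counting interval 3.2 to 4.0). Exons of Apol6 overlap those of the myoglobin gene Mb on the opposite strand, and without knowledge of the strand use of the counting, fragments of both genes cannot be told apart there. Mb itself was listed at 0.0951 and 0.132 FPKM, far below Apol6.

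The Apol9 genes differed in the opposite direction. Apol9a (ENSMUSG00000057346, chromosome 15, 77403789 to 77411135, minus strand) was at 58.1 FPKM in the wild type and 20.9 FPKM in the knockout, a 2.78-fold lower level (95% counting interval 2.64 to 2.94). Apol9b (ENSMUSG00000068246, chromosome 15, 77729039 to 77736382, plus strand) was at 45.1 FPKM in the wild type and 15.7 FPKM in the knockout, a 2.88-fold lower level (95% counting interval 2.60 to 3.19). Their coding sequences are almost the same, while most of the annotated Apol9a transcript is its own, so the values of the single copies are uncertain to the extent that fragments match both. They kept nearly the same proportion in both libraries, with Apol9a at 1.29 times the level of Apol9b in the wild type library and 1.33 times in that of the knockout. Summed over both copies, the level was 103 and 36.6 FPKM, 2.83-fold lower in the knockout library. On the log2 scale, Apol9b and Apol9a ranked 108 and 115 from the lowest of the 12429 genes.

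The Apol7 genes went both ways. Apol7a (ENSMUSG00000010601, chromosome 15, 77388219 to 77399110, minus strand), which had no IRF core in its promoter window, was at 40.3 FPKM in the wild type and 22.7 FPKM in the knockout library. It was 1.78-fold lower (95% counting interval 1.65 to 1.92), short of the 2-fold threshold. Apol7b was at 1.39 FPKM in the wild type and 3.15 FPKM in the knockout library. Apol7e was at 1.39 FPKM in the wild type and 3.04 FPKM in the knockout library.

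Apol7b and Apol7e were 2.26-fold (95% counting interval 1.66 to 3.11) and 2.18-fold (1.60 to 3.01) higher as plain ratios, but their log2 ratios with a pseudocount of 1, 0.79 and 0.75, did not reach 2-fold. As a plain ratio, 2.34% of the 12429 genes were at least 2-fold higher. These 2 genes are also near-identical, at almost equal levels within each library, and their promoter windows differ in that only Apol7e held the IRF core. Apol7c, the member known from dendritic cells, was low, at 0.182 and 0.353 FPKM, about 7.14 and 15.6 implied fragments, and its difference was not resolved at this depth (1.94-fold, 95% counting interval 0.755 to 5.54). Summed over all 4 Apol7 genes, the level was 43.3 and 29.2 FPKM, a sum that was mostly Apol7a.

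The cluster holds relatives outside the 10 genes. Apol11b, whose coding sequence is closest to Apol11a and Apol10b, was at 0.801 FPKM in the wild type and 4.78 FPKM in the knockout library, 5.97-fold higher (95% counting interval 4.16 to 8.80). Apol11a was at 0.447 and 0.263 FPKM, with an interval that included equal levels (0.243-fold to 1.37-fold). Apold1, a gene of endothelial cells on chromosome 6 with an apolipoprotein L domain, was at 0.138 and 0.0826 FPKM. Apol7d was listed in neither library.

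**Figure D2:**
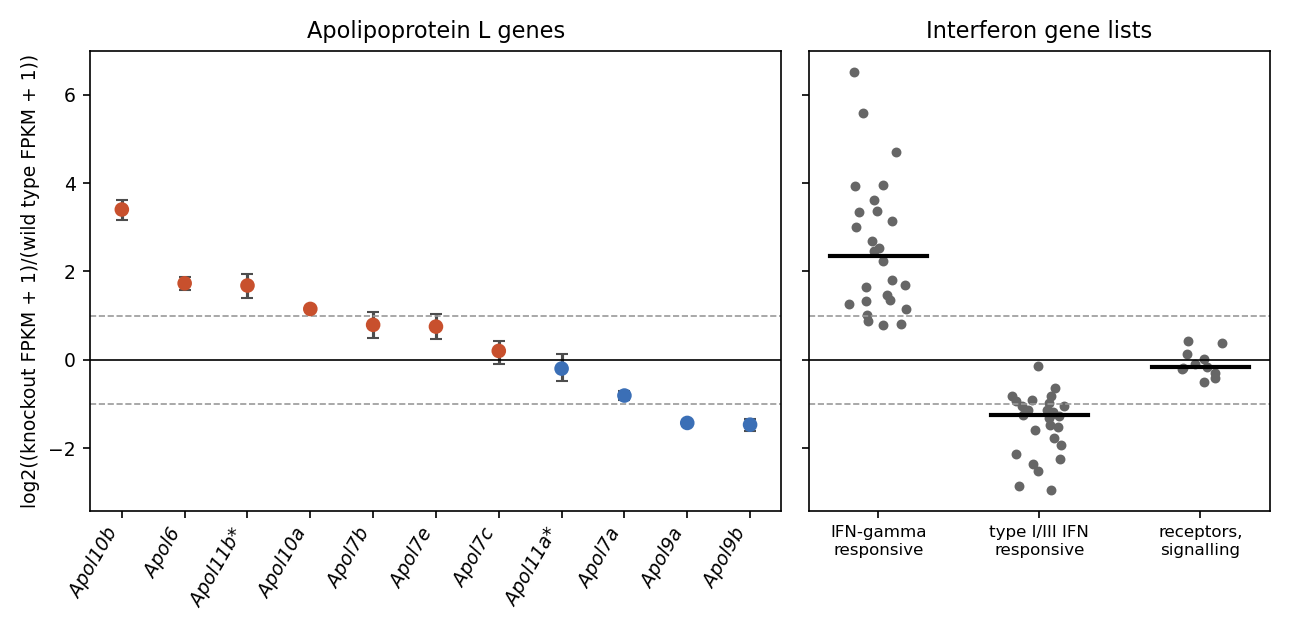
Left, log2((knockout FPKM + 1)/(wild type FPKM + 1)) of each listed apolipoprotein L gene in descending order, with bars for the 95% counting interval and asterisks for relatives outside the 10 genes. Right, the same ratio for genes averaging 1 FPKM or more in 3 interferon gene lists, each point 1 gene and each black bar a median, and dashed lines at 2-fold. The members run from 3.40 for Apol10b to -1.47 for Apol9b, and the list medians are 2.35, -1.26 and -0.17.

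Because the higher members outweighed the lower ones, the summed level of the 10 genes was 341 FPKM in the wild type and 535 FPKM in the knockout library, and its makeup differed. Apol10a made up 53.8% of the wild type sum and 76.3% of the knockout sum. The Apol9 genes together made up 30.3% and 6.84%, and Apol7a 11.8% and 4.24%. Apol10b went from 0.537% to 5.38%, about the level of Apol6 in the knockout library at 6.02%. Without Apol10a, the other 9 genes summed to 157 FPKM in the wild type and 127 FPKM in the knockout library, so the higher sum of the family was that of Apol10a.

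**Figure D3:**
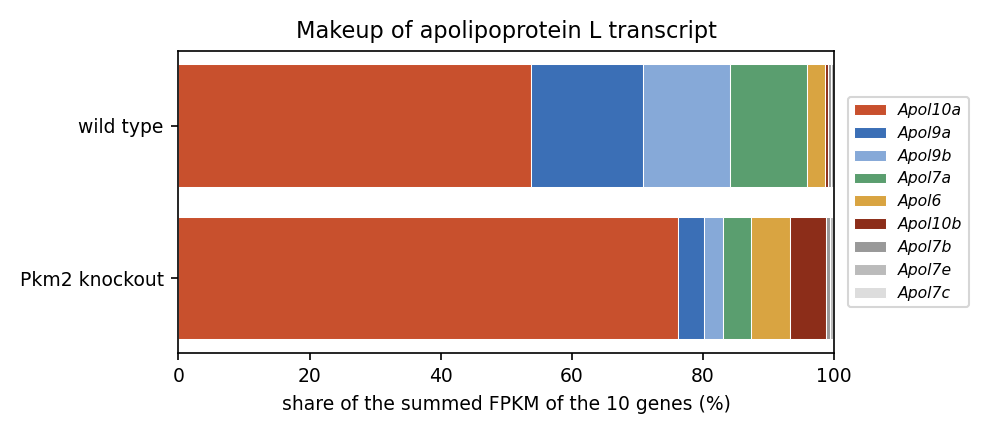
Share of each gene in the summed FPKM of the 10 apolipoprotein L genes, in percent, with 1 bar per library. Apol10a takes 53.8% of the wild type bar and 76.3% of the knockout bar, and the blue Apol9 segments shrink from 30.3% to 6.84%.

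Along the chromosome, the genes of the cluster that averaged 1 FPKM or more were lower in the knockout library at both ends and higher between them. Of the 10 genes, all but Apol6 lie within 369 kb on chromosome 15, from 77388219 to 77757003 on GRCm38, and Apol6 lies 331 kb before them. The Apol9 genes, both lower in the knockout library, stand near opposite ends of the cluster, with Apol7b, Apol10a, Apol10b, Apol11b and Apol7e, all higher, between them. Among the genes of other families in the span and the 5 listed genes on either side, 9 averaged at least 1 FPKM. None of these 9 was 2-fold apart, against 3.31% of all genes, so little can be read from that count. The log2 ratios of the 9 lay between -0.29 for the zinc finger gene Zfp7 and 0.41 for 1110038F14Rik. Rbfox2, a splicing regulator between Apol6 and the cluster, was at 8.03 and 9.17 FPKM, and Myh9, the non-muscle myosin gene next to the cluster, at 73.8 and 92.6 FPKM. The others were Commd5 (12.7 and 11.2 FPKM), the ribosomal protein gene Rpl8 (579 and 596), the mitochondrial thioredoxin gene Txn2 (94.5 and 106), Foxred2 (1.36 and 0.982) and the translation factor gene Eif3d (42.6 and 51.1).

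**Figure D4:**
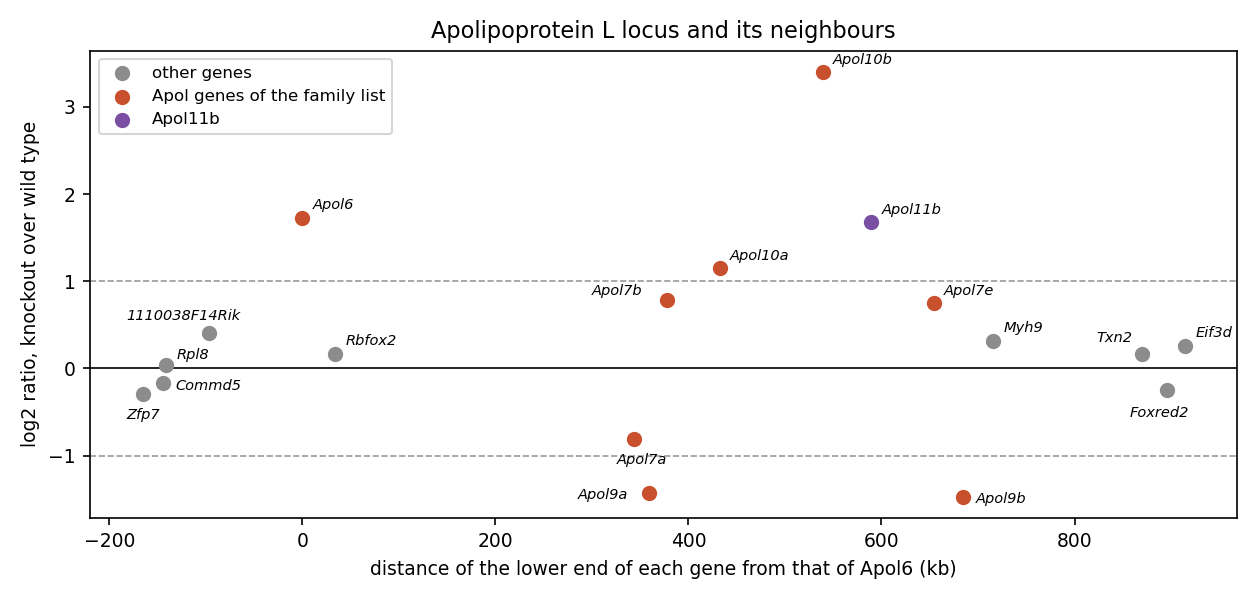
Log2 ratio of knockout over wild type for every gene with a mean of at least 1 FPKM in and beside the apolipoprotein L locus, by the distance of its lower end from that of Apol6 in kb, with dashed lines at 2-fold. Members in red spread from 3.40 to -1.47, Apol11b is in purple, and genes of other families in grey stay between -0.29 and 0.41.

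How far members share sequence bears on how well their values can be told apart. Over the aligned coding sequence, Apol7b and Apol7e were 98.9% identical, with 12 mismatches, and Apol9a and Apol9b 98.5%, with 14 mismatches. Apol10a and Apol10b were 71.7% identical, whereas Apol10b and Apol11b were 80.3% identical. Apol7a and Apol7c were 80.2% identical, and Apol6 had at most 44.5% with any other member.

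Within these coding groups, the near-identical pairs had near-equal ratios and the wider groups did not. Apol9a and Apol9b were at log2 ratios of -1.43 and -1.47, and Apol7b and Apol7e at 0.79 and 0.75, while Apol7a was at -0.81. How much of the likeness of a pair comes from fragments that match both copies was not tested. Of all 31-base words in the annotated transcripts of Apol9b, 64.9% also occur in Apol9a, but only 20.2% of those of Apol9a occur in Apol9b. Apol7b shared 79.4% of its words with Apol7e, and Apol7e 80.2% with Apol7b. For Apol10b and Apol6, 11.2% and 0.220% of such words occur in any other gene of the family. A share of words is not a share of fragments, and where the fragments of each gene fell is not known here. For Apol10a the share was 28.0%, of which the pseudogene Apol10c-ps, listed in neither library, was the closest gene with 15.3%. Words were also shared with genes outside the family. This held for 24.8% of those of Apol7c, 11.1% of Apol7b, 10.8% of Apol7a, 10.6% of Apol7e and 2.24% of Apol6. In the other members it was at most 0.349%.

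**Figure D5:**
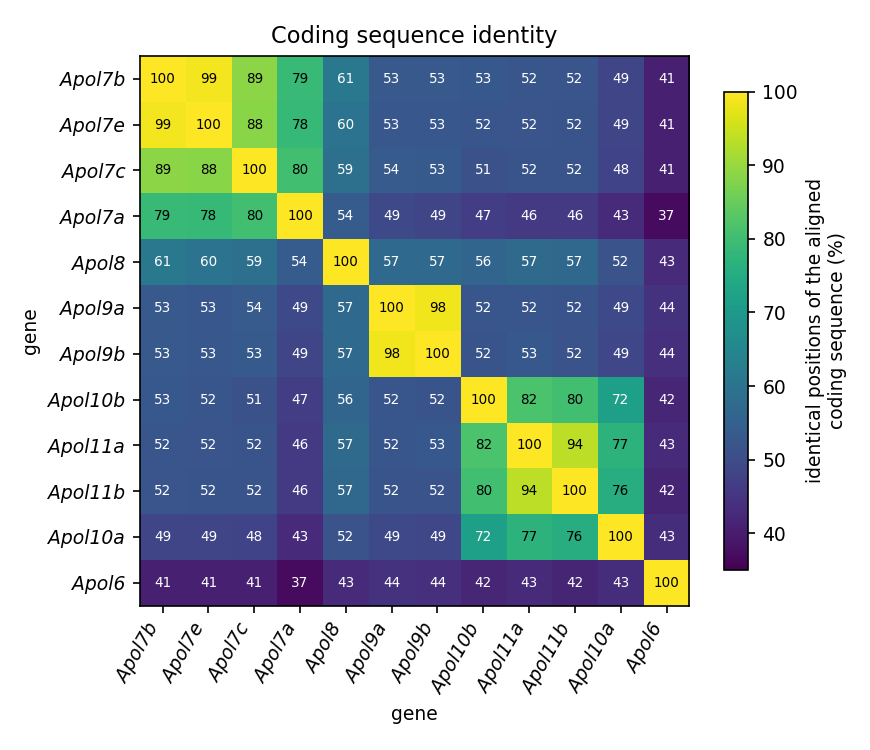
Identical positions in the pairwise aligned coding sequences of 12 apolipoprotein L genes, in percent of all alignment columns. Bright blocks show the Apol7 genes, the Apol9 pair and the Apol10 and Apol11 genes, and Apol6 stands apart with at most 44.5%.

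Interferon-responsive genes in the same libraries were set beside the family. These lists were drawn up with earlier results of the libraries known, so their counts are descriptive. Of 26 genes that respond chiefly to interferon gamma, 23 were higher in the knockout library by 2-fold or more and none was lower, with a median log2 ratio of 2.35. They were led by the tryptophan-degrading enzyme gene Ido1 (10.3 and 1037 FPKM) and the MHC class II invariant chain gene Cd74 (32.9 and 1617 FPKM), and the smallest ratios were those of the GTPase gene Gbp3 (31.7 and 55.9 FPKM) and the immunoproteasome gene Psmb10 (124 and 216 FPKM). Of 27 genes that respond chiefly to type I and type III interferon, 20 were at least 2-fold lower and all 27 had ratios below 0, with a median of -1.26. The lowest were the antiviral genes Ifit3 (62.3 and 7.24 FPKM) and Rsad2 (43.8 and 5.20 FPKM), and the nucleic acid sensor gene Zbp1 (99.0 and 90.1 FPKM) and the tetherin gene Bst2 (103 and 65.3 FPKM) were the highest.

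The members lay on both sides of these lists. The 3 genes of the lists closest to Apol10b in log2 ratio, over 64 genes and these 2 libraries alone, were the tryptophanyl-tRNA synthetase gene Wars, the chemokine gene Cxcl9 and the class II transactivator gene Ciita, all of the interferon gamma list. Those closest to Apol9b were the antiviral genes Rtp4 (55.4 and 19.3 FPKM) and Oasl1 (80.2 and 25.7 FPKM) and the transcription factor gene Irf7 (266 and 91.5 FPKM), all of the type I and III list. Apol10a, at 1.15, and Apol6, at 1.73, lay below the median of the interferon gamma list. All 26 genes of the interferon gamma list had ratios above 0 and all 27 of the type I and III list below 0. The list in which the closest genes fell therefore followed from the sign of the ratio of the member, and nothing further is read from it. A value from 2 libraries says nothing of shared control.

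The IRF core was present in promoters of both lists, in 9 of the 17 interferon gamma genes and 12 of the 19 type I and III genes with a promoter in the table. It was in 1 of the 10 interferon receptor and signal genes with a promoter there. Among all genes averaging 1 FPKM or more with a promoter there, 3.82% held it. Within the family, the IRF core was in the promoter window of higher genes (Apol10a, Apol10b and Apol7e) and of lower ones (Apol9a and Apol9b). None of the 11 interferon receptor and signal genes was 2-fold apart, against 3.31% of the 12429 genes, so little can be read from that count. Their median log2 ratio was -0.17. The highest ratios were those of Ifnar2 (3.76 and 5.41 FPKM) and Ifnar1 (9.98 and 13.2 FPKM), receptor chains for type I interferon. The lowest were those of Irf9 (51.0 and 38.2 FPKM) and Stat2 (67.1 and 47.1 FPKM), which transmit type I and III signals.

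Markers of other cells also differed between the preparations, and in bulk RNA fewer cells of a type and less RNA per cell cannot be told apart. All 7 T cell markers averaging 1 FPKM or more, out of 8, were higher by 2-fold or more in the knockout library, the sum of the 8 was 17.4 and 80.3 FPKM, and none was at 0. The 6 dendritic cell markers summed to 0.580 and 2.45 FPKM, the 6 macrophage and monocyte markers to 7.17 and 9.03 FPKM and the 5 B and plasma cell markers to 4.63 and 19.4 FPKM, with none at 0. The 5 endothelial markers summed to 1.47 and 0.835 FPKM, with Cdh5 not listed in the wild type library and taken as 0, and the 5 fibroblast markers to 4.34 and 1.35 FPKM, with Pdgfra not listed in the knockout library and taken as 0. The 6 epithelial markers summed to 4844 and 5445 FPKM, and none was 2-fold apart. Apol10a alone exceeded the summed markers of each non-epithelial type in both libraries, while Apol10b, at 28.8 FPKM in the knockout library, lay below the T cell sum there. A level above or below a sum of markers does not show which cells held the transcript. The part of the non-epithelial cells in the differences of the members was not tested.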

How the data were processed

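The labels give 2 colon epithelial messenger RNA libraries, 1 per genotype. The values are FPKM as the authors deposited them, 1 per Ensembl gene, without a header; the unit was inferred from the values and the tools in the submitters' processing notes, which list Cuffdiff 2.2.1 and 1.3.0, Cufflinks 2.2.1, TopHat2 2.1.1 and Bowtie2 2.2.9. These notes name mm8, but of 22384 gene IDs 99.4% were in GENCODE M21, and 99.90% of these overlapped the gene on GRCm38, the build used here. The sources used here do not give strand use, read length or the handling of fragments that match several genes. No value of 0 is listed in the files, so an unlisted gene was set to 0 and may be a failed estimate.

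Symbols with several IDs were summed. The log2 ratio had a pseudocount of 1 FPKM, and genes averaging 1 FPKM or more were counted at 2-fold. The step at the worth of 1 fragment came from genes with 1 transcript over 1.5 kb. Longest complete coding sequences from GENCODE were aligned globally with Biopython 1.88, in place of proteins. All members, 2 genes at either end of each list, the closest list genes and the measured neighbours were named. The members and lists were chosen with earlier results of these data known. The step, calls and intervals were tried on simulated data with counting error alone and the same transcript lengths. The intervals there used the true step and length, so they do not bear on the estimated step or the choice of the longest transcript. The simulation had no fragments matching several genes and no spread between animals, so it does not bear on near-identical copies or on that spread. One further promoter motif is not reported here.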

Additional observations from a re-analysis of the deposited data

How the results depend on the processing

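All 9 listed members kept the sign of their log2 ratio under pseudocounts of 0.1 and 5 and under both rescalings, over ranges such as 2.31 to 3.90 for Apol10b, 1.07 to 1.15 for Apol10a and -1.55 to -1.28 for Apol9b. With a pseudocount of 0.1, Apol7b (1.12) and Apol7e (1.07) passed 2-fold, so that 5 members were higher in place of 3, the median of the members was 1.10 and that of the interferon gamma list 2.58. With a pseudocount of 5, these medians were 0.34 and 1.61, that of the type I and III list was -1.10 and the summed Apol9 genes were at -1.38. With equal library medians the summed Apol9 genes were at -1.56 and the summed Apol10 genes at 1.15, and with equal upper quartiles the latter were at 1.17. Restricted to genes averaging 5 FPKM or more, the median of the members was 0.17, over fewer members. Over all genes, 176 higher and 236 lower became 272 and 361 with a pseudocount of 0.1, 85 and 124 with a pseudocount of 5, and 111 and 154 at 5 FPKM. The looser core GAAANNGAA left the count of members with an IRF core at 6. Protein identity was planned and not run, since protein sequences were not used here; without gap columns, coding identity of Apol10a and Apol10b was 75.3%. No paired analysis was possible because each genotype has 1 library. Depth limits Apol7c, Apol11a and Apold1, whose intervals include equal levels.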

Other observations

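The letters around the IRF cores were compared once more, with patterns chosen after the sequences were seen. The stricter pattern of the interferon-stimulated response element was AGTTTC and TTTC with 2 bases of any kind between them. It was present upstream of Apol9a and Apol9b and of no other member with a promoter in the table. Over all genes with a promoter there, 0.303% held it. Among the gene lists it was in 6 of 17 interferon gamma genes and 7 of 19 type I and III genes. A run of 3 copies of GAAA, each 2 bases apart, was present upstream of Apol7c, Apol7e, Apol9a and Apol9b. Over all genes with a promoter in the table, 0.133% held such a run. The letters GGGTATA stood downstream of the core or of its counterpart in Apol7b, Apol7c, Apol7e, Apol10a, Apol11a and Apol11b, and in 1.27% of all promoters. Over the 250 bases before the start, Apol11a and Apol11b were identical base for base, and Apol11a was at 0.447 and 0.263 FPKM and Apol11b at 0.801 and 4.78 FPKM. Apol7b and Apol7e were 95.7% identical there, and only Apol7e held the IRF core. Their levels were nearly equal in each library, and 79.4% of the 31-base words of Apol7b also occur in Apol7e. How much of this likeness in level comes from fragments that match both copies was not tested. These are descriptions of sequence and level, and no explanation of them was tested.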
